A study of Homo sapiens with 28 samples.

Results

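DDX5 and DDX17 are paralogous DEAD box proteins, which use ATP to unwind short RNA duplexes and to remodel complexes of RNA and protein. Both bind the Microprocessor, which cuts microRNA precursors from primary transcripts. Both also take part in alternative splicing and in transcription termination, and act as coactivators of several transcription factors, among them p53, MYOD and steroid receptors. They can bind each other, and they are often treated as interchangeable. The direct comparison of their knockdowns asks what differs and what is shared when one or the other is lowered in the same cells.

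The comparison rested on 6 of the 28 arrays of the series, chosen by their titles: 3 arrays of HEK293 cells with hairpins 1 to 3 against DDX5 and 3 arrays with hairpins 1 to 3 against DDX17. HEK293 is a human embryonic kidney line, and all cells carried a lentiviral short hairpin RNA (shRNA) transcribed from the U6 promoter of the pLKO vector, were selected with puromycin and were harvested after 6 days. Each array was of a different hairpin, so the 3 arrays of a gene are separate infections with different sequences, not repeats of 1 sequence; the p-values measure the spread between such arrays. The 3 CLP1 and 3 HNRNPL knockdown arrays of the same series of 14 served as comparison, CLP1 being a subunit of the machinery that cleaves pre-mRNA 3′ ends and HNRNPL a splicing regulator. No lacZ control array was used, so a difference between DDX5 and DDX17 arrays does not by itself say which of them departed from unmanipulated cells. RNA levels are log2 intensities of Affymetrix Human Gene ST1.0 probesets for 18417 genes, and a difference of 1 on this scale is a doubling. The fit was a linear model by limma over the 24 arrays of the 8 genes with 3 hairpins each. Besides DDX5, DDX17, CLP1 and HNRNPL these were PABPC1, PARP1, PRKDC and SUPT16H, all of the second series, which was normalized apart. Arrays of the second series entered only the estimate of the spread between hairpins. A gene was called when its p-value, adjusted over all genes by Benjamini and Hochberg, was under 0.05.

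The array of DDX5 hairpin 3 stood apart from the other 5. Over all genes the standard deviation (SD) of the log2 difference between it and DDX5 hairpin 1 was 0.76, and between it and DDX5 hairpin 2 it was 0.54, whereas the pairs of DDX17 arrays differed by 0.24 to 0.27. Its nearest neighbour was HNRNPL hairpin 3, at 0.36. DDX5 hairpin 1 lay nearer to CLP1 hairpin 2, at 0.19, than to either other DDX5 array, and to DDX17 hairpin 1 the distance was 0.26. The median gene varied between hairpins with an SD of 0.309 in the DDX5 arrays and 0.132 in the DDX17 arrays, and 0.118 to 0.168 in the other 6 knockdowns, so the pooled spread of the fit understates that of DDX5. Array medians were 61.5, 67.7 and 74.0 in DDX5 knockdown (hairpins 1 to 3) and 64.3, 66.1 and 66.4 in DDX17 knockdown. Of HEK293 markers, 6 of 8 lay above the median gene, and blood cell markers summed to 8.39 to 8.86 in DDX5 arrays and 8.52 to 8.63 in DDX17 arrays, with 0 of 11 above it; PTPRC, the leukocyte marker, lay at the percentile 1.72 of all genes. Named genes whose call was lost without that array are marked as such, and the medians of gene lists between the 2 knockdowns are also given without it.

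**Figure D1:**
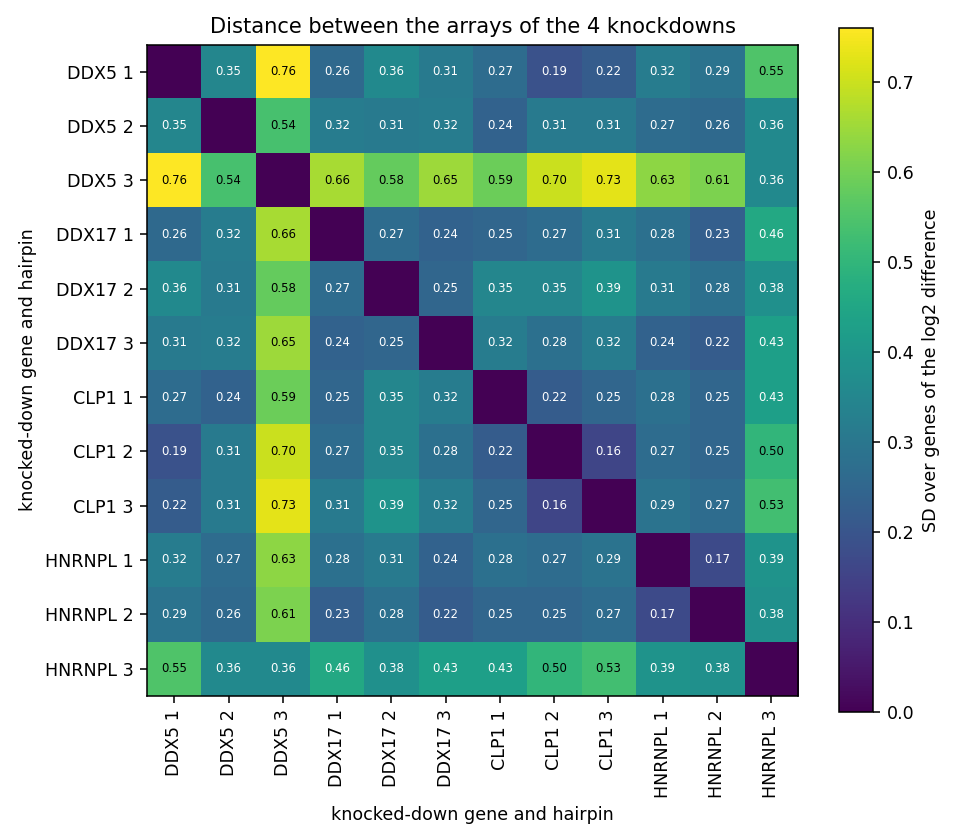
Distances between the 12 arrays of the DDX5, DDX17, CLP1 and HNRNPL knockdowns. Each cell gives the SD over 18417 genes of the difference in log2 intensity between 2 arrays, rows and columns being the knocked-down gene and hairpin. DDX5 hairpin 3 is 0.54 to 0.76 from the other DDX5 arrays and 0.36 from HNRNPL hairpin 3, while the 3 DDX17 arrays are 0.24 to 0.27 from each other.

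Each helicase was lower in its own knockdown. DDX5 read 9.72, 9.60 and 9.26 with DDX5 hairpins 1 to 3, against 10.82, 10.60 and 10.74 with DDX17 hairpins 1 to 3. The groups did not overlap, and the difference was -1.19 ± 0.20 (SE), a 2.28-fold lower level in DDX5 knockdown (adjusted p = 0.00378). DDX17 read 11.01, 10.64 and 10.24 with DDX5 hairpins, against 9.40, 9.59 and 9.75 with DDX17 hairpins. Here too the groups did not overlap, and DDX17 was 2.07-fold higher in DDX5 than in DDX17 knockdown, by 1.05 ± 0.18 (adjusted p = 0.00372). Without DDX5 hairpin 3 the differences were -1.06 (adjusted p = 0.0149) for DDX5 and 1.24 (adjusted p = 0.000305) for DDX17. With the first-series arrays alone, DDX5 was still called (adjusted p = 0.0344) and DDX17 was not (adjusted p = 0.0869). With the 6 arrays of the 2 knockdowns alone neither was called, at adjusted p-values of 0.332 for DDX5 and 0.794 for DDX17.

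Against the CLP1 and HNRNPL arrays, neither helicase was measurably raised on average when its paralog was lowered. DDX5 averaged 10.72 ± 0.11 in DDX17 knockdown and 10.54 ± 0.07 and 10.50 ± 0.25 in CLP1 and HNRNPL knockdown (SD, n = 3 each), a difference from the mean of these of 0.20 (95% interval -0.16 to 0.56). DDX17 averaged 10.63 ± 0.39 in DDX5 knockdown and 10.92 ± 0.05 and 10.60 ± 0.20 in CLP1 and HNRNPL knockdown, a difference of -0.13 (-0.44 to 0.19). For DDX17 the DDX5 arrays disagreed: hairpin 1, at 11.01, lay above all CLP1 and HNRNPL arrays, and hairpin 3, at 10.24, below them all. Both intervals span 0, and shifts up to their bounds are not excluded. The pooled spread of the fit understates that of the DDX5 arrays, so the interval for DDX17 is likely too narrow. Against the same CLP1 and HNRNPL arrays, DDX5 differed by -0.99 (-1.35 to -0.63) in its own knockdown and DDX17 by -1.17 (-1.49 to -0.86) in its own, so the intervals of the 2 depletions overlapped. By limma the adjusted p was 0.126 for DDX5, which thus missed the threshold here, and 0.00056 for DDX17.

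Across all genes 76 of 18417 were called between the knockdowns (0.413%), 15 higher (0.0814%) and 61 lower (0.331%) in DDX5 than in DDX17 knockdown. In all 76 the 3 DDX5 arrays did not overlap the 3 DDX17 arrays, which was so for 1613 genes in all (8.76%). The higher genes differed by 0.48 to 1.18 and the lower ones by 0.51 to 2.04 in absolute value. The count depended on which arrays entered. It was 97 (0.527%) without DDX5 hairpin 3, with 45 higher and 52 lower, of which 51 were among the 76. It was 19 (0.103%) when only the 12 arrays of the 4 first-series knockdowns were fitted, 1 higher and 18 lower, and 4 with the 6 arrays alone, all lower and all among the 76. Leaving out DDX5 hairpin 1 gave 2275 genes, DDX5 hairpin 2 gave 32, DDX17 hairpin 2 gave 37 and DDX17 hairpin 3 gave 31. Weighting the arrays by how well each fitted called 2769. The weights of DDX5 hairpins 1 to 3 were 0.291, 4.66 and 0.102, so the weighted DDX5 mean rested mostly on hairpin 2.

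**Figure D2:**
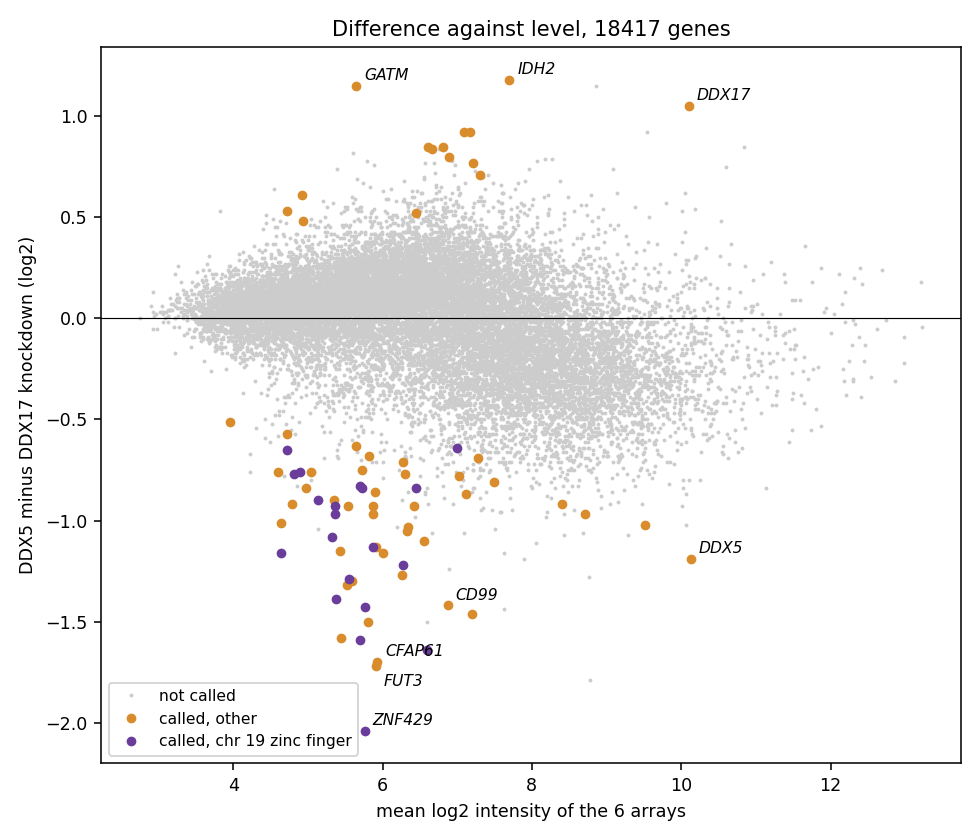
Difference between DDX5 and DDX17 knockdown (DDX5 minus DDX17, log2) against the mean log2 intensity of the 6 arrays for 18417 genes. Coloured points are the 76 called genes, purple those that are zinc finger genes of chromosome 19; 61 called genes lie below 0 and 15 above.

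The lower genes had a median level of 5.31 in DDX5 knockdown and 6.36 in DDX17 knockdown. Of the 61, 24 were among the 6139 dimmest genes, 31 among the 6139 of middle level and 6 among the 6139 brightest. Differences also varied with brightness. The median of the brightest genes was -0.17 and that of the genes of middle level 0.09, and without DDX5 hairpin 3 both medians were 0.02. These shifts moved with that array.

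Of the 61 lower genes, 20 were zinc finger genes on chromosome 19. Genes of this kind encode DNA-binding proteins with tandem C2H2 fingers, many with a KRAB domain that recruits the repressor TRIM28, and many bind and silence transposable elements; they lie in tandem clusters of close paralogs. The set was noticed after the values were seen, so it is described with counts and no test. Of 248 measured zinc finger genes (symbols ZNF, ZFP, ZSCAN or ZKSCAN with a number, pseudogenes and antisense RNAs of such symbols included) on chromosome 19, 20 were called lower and 0 higher (8.06%), and 191 (77%) had a value below 0, with a median of -0.20. Of 292 zinc finger genes on other chromosomes 2 were called lower and 1 higher, with a median of -0.07 (-0.01 without DDX5 hairpin 3). Of 1060 other genes on chromosome 19, 4 were called lower and 1 higher, with a median of 0.10, and the remaining 16817 genes had a median of 0.02. Without DDX5 hairpin 3 the medians were -0.07 for the zinc finger genes of chromosome 19 and -0.03 for the other genes of chromosome 19, so the size of the group's shift changed with that array. After quantile normalization and after median centring the group's median was -0.23 and -0.26, with all genes at 0.02 and -0.04. The called genes were less dependent on it: 17 of the 20 stayed called without it, 9 of the 20 with first-series arrays alone and 4 of the 20 with the 6 arrays alone. Close paralogs can share probe sequence, so a value of 1 of these genes may hold signal of another.

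ZNF429 showed the largest difference of all genes. It read 5.39, 4.83 and 4.0 with DDX5 hairpins 1 to 3, against 6.97, 6.52 and 6.86 with DDX17 hairpins 1 to 3. The difference was -2.04 ± 0.31, a 4.12-fold lower level (adjusted p = 0.00149), and -1.67 without DDX5 hairpin 3, which gave the lowest of the 6 values.

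ZNF43 read 5.13, 4.96 and 4.62 in DDX5 knockdown, against 6.57, 6.52 and 6.39 in DDX17 knockdown. All 6 values sat close to their group's mean, and the difference was -1.59 ± 0.24 (adjusted p = 0.00149). ZNF91, a repressor of primate SVA retrotransposons, read 6.35, 5.68 and 5.29 in DDX5 knockdown, against 7.57, 7.44 and 7.22 in DDX17 knockdown. The difference was -1.64 ± 0.27 (adjusted p = 0.00372, and 0.0508 with first-series arrays alone). ZNF492 read 5.75, 4.65 and 4.75, against 6.46, 6.41 and 6.57, and its difference was -1.43 ± 0.23 (adjusted p = 0.00226; 0.0638 with first-series arrays alone). ZNF667-AS1, a non-coding RNA beside the zinc finger gene ZNF667, read 4.60, 4.67 and 4.77, against 6.18, 6.35 and 5.68, a difference of -1.39 ± 0.24 (adjusted p = 0.00519; 0.0556 with first-series arrays alone). In each of these the highest DDX5 array stayed below the lowest DDX17 array.

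The called zinc finger genes of chromosome 19 lay mostly in 2 runs of neighbours, in the gene order of GRCh38.p14. From ZNF85 to ZNF681 there were 23 measured genes, 21 of them zinc finger genes. In this run 6 were called, all lower (ZNF85, ZNF429, ZNF43, ZNF492, ZNF91 and ZNF681, the last at an adjusted p of 0.0649 without DDX5 hairpin 3), and 20 of 23 had a value below 0, with a median of -0.60 (-0.29 without DDX5 hairpin 3). From ZNF610 to ZNF331 there were 32 measured genes, of which 11 were called, all lower, with a median of -0.18 (-0.20 without DDX5 hairpin 3). The ends of both runs were set by called genes, so their shares of called genes have no background to be read against. Within the runs called and uncalled genes were neighbours: ZNF808, at -1.29, stood beside ZNF578, at -0.17, and ZNF43, at -1.59, next to CCNYL6, at 0.20. Several uncalled genes of the second run were dim in both groups: ZNF578 averaged 3.13 in DDX5 and 3.30 in DDX17 knockdown. VN1R4, a vomeronasal receptor, averaged 4.66 in each and differed by -0.00. Called genes could be as dim in DDX5 knockdown, ZNF83 averaging 4.05 there and 5.22 in DDX17 knockdown.

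ZNF808, of the second run, had the smallest adjusted p of all genes. It read 4.92, 4.98 and 4.84 with DDX5 hairpins 1 to 3, against 6.21, 6.15 and 6.24 with DDX17 hairpins 1 to 3. The 2 groups had an SD of 0.07 and 0.05, and the difference was -1.29 ± 0.14 (adjusted p = 4.47e-05; 0.00612 with first-series arrays alone and 0.0253 with the 6 arrays alone). ZNF83, ZNF28, ZNF528, ZNF468, ZNF610, ZNF880, ZNF160, ZNF816, ZNF701 and ZNF331 made up the rest of the 11, with differences of -1.16 for ZNF83 to -0.64 for ZNF331, which was no longer called without DDX5 hairpin 3 (adjusted p = 0.0535). These members of the run are named because they complete its count, after their values were seen.

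**Figure D3:**
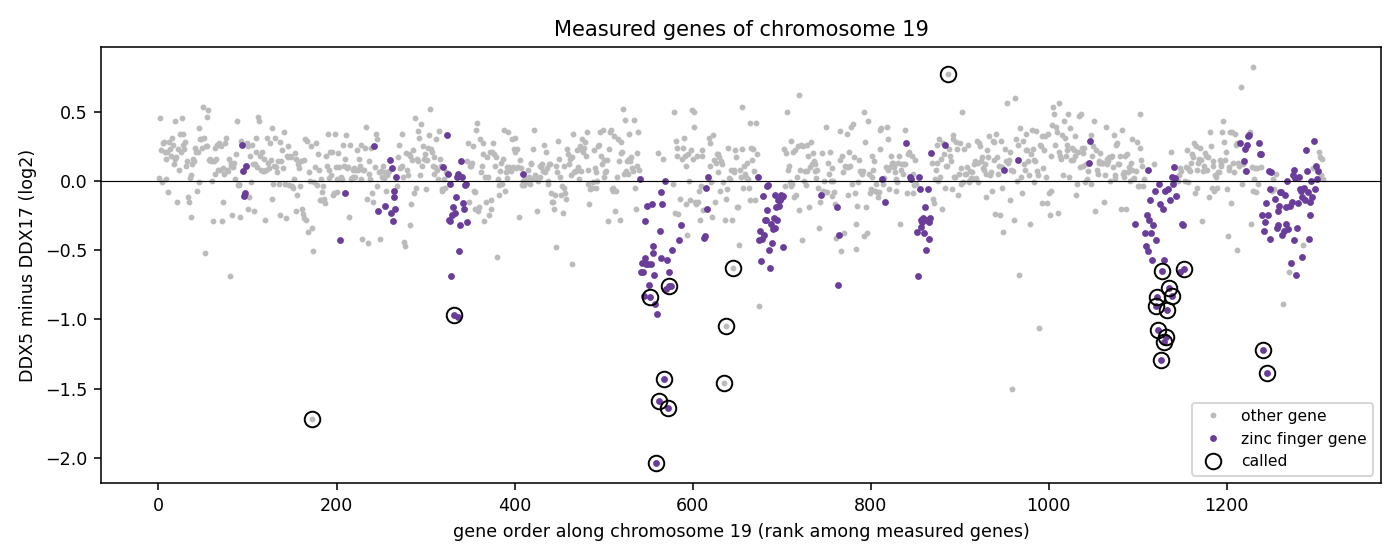
Measured genes of chromosome 19 in their order along the chromosome (rank among measured genes), with the difference in log2 intensity, DDX5 minus DDX17 knockdown, on the vertical axis. Purple points are zinc finger genes and rings mark called genes; 20 zinc finger genes are called, all below 0, most of them in 2 runs.

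The levels of these genes were also set beside those in CLP1 and HNRNPL knockdown. Of the 20 called zinc finger genes of chromosome 19, CLP1 knockdown lay nearer to DDX5 knockdown in 20, and HNRNPL knockdown lay nearer to DDX17 knockdown in 19. Their median levels were 4.90 in DDX5 knockdown, 6.13 in DDX17 knockdown, 5.11 in CLP1 knockdown and 5.97 in HNRNPL knockdown. For ZNF808 the means were 4.91 ± 0.07 in DDX5, 6.20 ± 0.05 in DDX17, 4.95 ± 0.13 in CLP1 and 6.19 ± 0.26 in HNRNPL knockdown (SD, n = 3 each). In ZNF808 and in these medians the low and the high level were each shared by a pair of knockdowns, 1 helicase in each pair. The lower level was thus not particular to the DDX5 arrays. In some genes HNRNPL knockdown lay midway. ZNF429 averaged 4.74 in DDX5, 5.88 in HNRNPL and 6.78 in DDX17 knockdown, and ZNF492 averaged 5.05, 5.75 and 6.48. HNRNPL hairpins 1 to 3 read 6.54, 6.01 and 5.09 for ZNF429, the lowest being hairpin 3. Over all 61 lower genes CLP1 was nearer to DDX5 in 60 and HNRNPL nearer to DDX17 in 40. Over all 18417 genes the counts were 7316 and 9216. Over the 780 genes lower with no overlap of arrays, called or not, they were 509 and 444. Among the 41 called lower genes outside the chromosome 19 zinc finger group, HNRNPL was nearer to DDX17 in 21 and to DDX5 in 20.

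CD99, a cell surface glycoprotein of adhesion and leukocyte migration, had the same pattern outside chromosome 19. It read 5.81, 6.43 and 6.24 with DDX5 hairpins, against 7.69, 7.58 and 7.48 with DDX17 hairpins. The arrays split into a low and a high level with no value between, and the difference was -1.42 ± 0.16 (adjusted p = 6.1e-05; 0.00669 with first-series arrays alone). CD99 averaged 5.95 ± 0.10 in CLP1 knockdown, near the DDX5 level, and 7.75 ± 0.09 in HNRNPL knockdown, near the DDX17 level.

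Other lower genes were highest in DDX17 knockdown. CFAP61, a component of the radial spokes of motile cilia, read 5.72, 4.73 and 4.78 in DDX5 knockdown, against 6.49, 6.86 and 6.99 in DDX17 knockdown, a difference of -1.70 ± 0.22 (adjusted p = 0.000302). CLP1 and HNRNPL knockdown averaged 5.40 ± 0.39 and 5.42 ± 0.43. Set against the mean of these, CFAP61 differed by -0.33 (-0.73 to 0.06) in DDX5 knockdown and by 1.36 (0.97 to 1.76) in DDX17 knockdown. Measured from the mean of CLP1 and HNRNPL, most of the gap lay on the DDX17 side. Which helicase departed from control cells was not tested.

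FUT3, the fucosyltransferase that makes Lewis blood group antigens, read 4.91, 4.87 and 5.38 with DDX5 hairpins, against 6.25, 6.45 and 7.62 with DDX17 hairpins. Hairpin 3 of DDX17 gave the highest value, and the difference was -1.72 ± 0.22 (adjusted p = 0.000302). MTUS2-AS1, an antisense RNA of MTUS2, behaved alike, at 4.88, 4.82 and 5.44, against 5.94, 6.42 and 7.29, with DDX17 hairpin 3 again the highest and a difference of -1.50 ± 0.22 (adjusted p = 0.00113; 0.0508 with first-series arrays alone). PDGFD, a ligand of the platelet-derived growth factor receptor beta, read 4.88, 5.19 and 4.55, against 6.28, 5.96 and 6.33, and differed by -1.32 ± 0.20 (adjusted p = 0.00149). For these 3 genes the difference of DDX17 knockdown from the mean of CLP1 and HNRNPL was 1.32, 1.27 and 1.04, while that of DDX5 knockdown was -0.40, -0.23 and -0.28.

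AMBN and KRTDAP were among the 12 called genes with the most negative differences. AMBN, the enamel matrix protein ameloblastin, read 5.13, 4.40 and 4.43 with DDX5 hairpins, against 6.66, 5.74 and 6.30 with DDX17 hairpins, a difference of -1.58 ± 0.27 (adjusted p = 0.00441; 0.0508 with first-series arrays alone). KRTDAP, a protein secreted by differentiating keratinocytes, read 6.91, 6.19 and 6.29, against 7.13, 8.50 and 8.15. Its hairpin 1 arrays came within 0.22 of each other, and the difference was -1.46 ± 0.29 (adjusted p = 0.0152; 0.144 with first-series arrays alone). Of the 8 keratinocyte markers 0 were called, 5 had a value above 0, and the median was 0.07 (-0.05 without DDX5 hairpin 3). Of these markers 2 lay above the median gene in level, and the list's summed level was 9.33 to 9.60 in DDX5 arrays and 9.62 to 9.80 in DDX17 arrays. The part of other cells in these values was not tested. LUM, the matrix proteoglycan lumican and the only called gene of 10 fibroblast markers, was near the bottom of the scale at 3.68, 3.73 and 3.69 in DDX5 knockdown, against 3.91, 4.36 and 4.36 in DDX17 knockdown (-0.51 ± 0.10, adjusted p = 0.0197; 0.192 with first-series arrays alone), while the other 9 markers had values above 0 and the list's median was 0.08 (-0.05 without DDX5 hairpin 3).

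The 15 genes higher in DDX5 than in DDX17 knockdown held DDX17 itself and the enzymes IDH2, GATM, PFKL and PHYH. Metabolic enzymes were also among the lower genes, CYP2E1 at -0.86 and ACACB at -0.68 among them, so they mark neither direction. IDH2, the mitochondrial isocitrate dehydrogenase that makes NADPH, read 8.01, 8.52 and 8.33 with DDX5 hairpins, against 7.26, 7.06 and 7.00 with DDX17 hairpins. The groups were 0.75 apart at their nearest arrays, and the difference was 1.18 ± 0.19, or 2.27-fold (adjusted p = 0.00226). It was the only higher gene called with first-series arrays alone (adjusted p = 0.0206). CLP1 and HNRNPL knockdown averaged 8.05 ± 0.17 and 7.83 ± 0.07, between the 2 helicases and nearer to DDX5.

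GATM, the first enzyme of creatine synthesis, read 6.76, 6.44 and 5.47 in DDX5 knockdown, against 5.39, 4.81 and 5.03 in DDX17 knockdown. DDX5 hairpin 3 came within 0.08 of the highest DDX17 array; the difference was 1.15 ± 0.23 (adjusted p = 0.0157; 0.222 with first-series arrays alone), and 1.52 without that array (adjusted p = 0.000104). GATM averaged 6.60 ± 0.20 in CLP1 knockdown and 4.93 ± 0.32 in HNRNPL knockdown, so the split ran as in CD99, with the sign turned. PHYH, the peroxisomal enzyme that starts breakdown of phytanic acid, read 7.56, 7.80 and 7.28, against 6.52, 6.78 and 6.58, a difference of 0.92 ± 0.16 (adjusted p = 0.00667; 0.0631 with first-series arrays alone).

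PFKL, the liver form of phosphofructokinase, read 7.07, 7.96 and 7.87 with DDX5 hairpins, against 6.75, 6.72 and 6.66 with DDX17 hairpins, a difference of 0.92 ± 0.17 (adjusted p = 0.00945; 0.167 with first-series arrays alone). It was the only called gene of 24 of glycolysis and hypoxia, whose median was -0.04 (0.12 without DDX5 hairpin 3). ZNF76, a zinc finger transcription factor gene on chromosome 6, read 6.97, 7.34 and 6.81, against 6.19, 6.10 and 6.29, a difference of 0.85 ± 0.16 (adjusted p = 0.00928; 0.072 with first-series arrays alone). For both genes CLP1 and HNRNPL knockdown lay with DDX5: PFKL averaged 7.54 ± 0.19 and 7.55 ± 0.03 there, and ZNF76 averaged 7.26 ± 0.08 and 7.28 ± 0.15.

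The next higher genes in order of size were PI4K2B, a phosphatidylinositol kinase (0.85), TMEM129, a ubiquitin ligase of the endoplasmic reticulum (0.84), SHISA2, a relative of a frog protein that holds back WNT and FGF receptors (0.80), TRAPPC6A, a vesicle tethering subunit (0.77), LIMK1, the kinase of cofilin (0.71), and CTSO, a cysteine protease (0.61). Their adjusted p-values ran from 0.00945 for PI4K2B to 0.0481 for LIMK1, and 0 of these 6 were called with first-series arrays alone. Without DDX5 hairpin 3, TMEM129, SHISA2, TRAPPC6A and LIMK1 were no longer called, at adjusted p-values of 0.0734 to 0.0838.

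**Figure D4:**
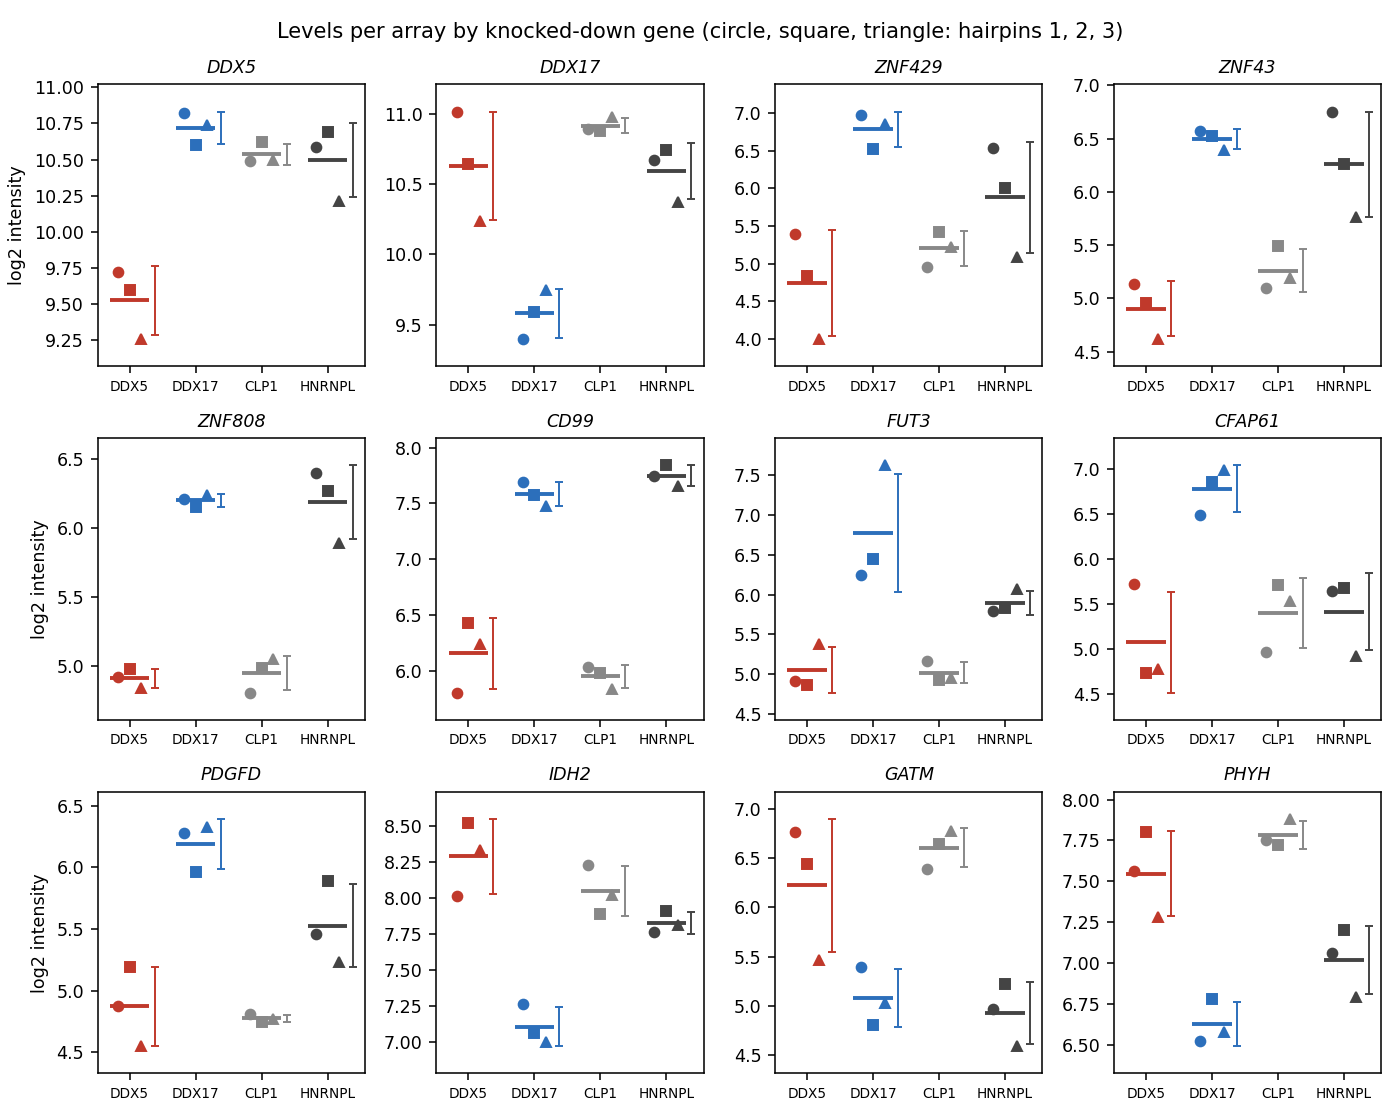
Log2 intensity per array for 12 genes in DDX5, DDX17, CLP1 and HNRNPL knockdown. Circles, squares and triangles are hairpins 1, 2 and 3, lines are means, and bars are the SD (n = 3). DDX5 and DDX17 are each low in their own knockdown, and ZNF808 and CD99 are low with DDX5 and CLP1 hairpins and high with DDX17 and HNRNPL hairpins.

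Over all 76 called genes, DDX17 knockdown lay farther than DDX5 knockdown from the mean of CLP1 and HNRNPL in 61. This held for 15 of the 15 higher genes, with medians of 0.15 in DDX5 and -0.69 in DDX17 knockdown, and for 46 of the 61 lower genes, with medians of -0.37 in DDX5 and 0.60 in DDX17 knockdown. The 20 zinc finger genes of chromosome 19 were split evenly, with DDX5 knockdown farther in 10 and DDX17 knockdown farther in 10, and medians of -0.51 in DDX5 and 0.54 in DDX17 knockdown. In 72 of the 76 the helicases lay on opposite sides of that mean. Both distances are taken from the same CLP1 and HNRNPL arrays, so they are values side by side and not independent of each other. The genes were called on the difference between the same DDX5 and DDX17 arrays, which by itself favours opposite sides. These counts were not made over all genes, so they have no background to be read against. Which helicase departed from control cells was not tested.

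Partners of the helicases did not pass the test. DROSHA, the nuclease of the Microprocessor, read 8.89, 8.93 and 8.07 with DDX5 hairpins, against 9.02, 9.01 and 9.20 with DDX17 hairpins. Hairpin 3 of DDX5 set the gap; the difference was -0.44 (-0.87 to -0.02; adjusted p = 0.409), and -0.16 without it. DGCR8, its RNA-binding subunit, differed by 0.16 (-0.12 to 0.45). DICER1, which cuts precursors in the cytoplasm, differed by -0.24 (-0.76 to 0.28), and by 0.05 without DDX5 hairpin 3. Splicing factor HNRNPH1, which works with both helicases, differed by -0.27 (-0.65 to 0.11), and by -0.10 without DDX5 hairpin 3. XRN2, the exonuclease that ends transcription, read 8.98, 8.36 and 7.25, against 8.86, 8.95 and 8.92; it differed by -0.71 (-1.26 to -0.16; adjusted p = 0.295), and by -0.24 without the lowest array, DDX5 hairpin 3.

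Lists of genes tied to helicase function are given by counts and medians beside the median of all genes, which was 0.02 (-0.01 without DDX5 hairpin 3). Of all genes 0.413% were called, so a count of 0 in lists of these sizes is near the background and says little about their members. Of 50 DEAD box and DEAH box helicases only DDX5 and DDX17 were called, and the list's median was -0.20 (-0.03 without DDX5 hairpin 3). After DDX5 the lowest members were DDX10 and DDX52, relatives of yeast helicases of ribosome assembly, at -0.64 each with adjusted p-values of 0.336 and 0.218, and at -0.25 for DDX10 and -0.31 for DDX52 without DDX5 hairpin 3. Of 20 genes of microRNA processing 0 were called (median -0.24, and -0.07 without DDX5 hairpin 3), with TUT7, a terminal uridylyltransferase, the lowest at -0.75 (adjusted p = 0.229), and at -0.35 without that array. Of 189 microRNA precursor genes 0 were called, with a median of 0.07 (-0.04 without DDX5 hairpin 3), and in 187 the 95% interval of the difference lay within 1 unit of 0. Of 207 small nucleolar and nuclear RNA genes 0 were called; the list's median was 0.13 (-0.01 without DDX5 hairpin 3), and relative to the mean of the 6 arrays it ranged from -0.21 to 0.40 over the DDX5 arrays and from -0.41 to 0.37 over the DDX17 arrays.

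For RNA-binding regulators the picture was the same. The medians were -0.07 for 27 hnRNP and related genes, -0.12 for 14 SR protein genes, -0.23 for 21 genes of termination and R loops, -0.26 for 20 of 3′ end processing and -0.28 for 36 of ribosome biogenesis, with 0 called in any. Without DDX5 hairpin 3 the 5 medians lay between -0.07 and 0.06. Housekeeping genes moved likewise, from a list median of -0.31 with all arrays to 0.05 without that array, and all 11 lie above the median gene in level.

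Lists of targets of the transcription factors that the helicases assist had medians of -0.04 to 0.09. These were 0.02 for 26 p53 targets, 0.00 for 17 Wnt and beta-catenin targets, 0.09 for 14 steroid receptor targets, 0.09 for 20 muscle genes, 0.09 for 25 TGF-beta and matrix genes and -0.04 for 30 neuronal genes bound by REST. Without DDX5 hairpin 3 they were 0.05 for p53, 0.04 for Wnt, -0.01 for steroid receptor, -0.04 for muscle, 0.01 for TGF-beta and -0.09 for REST. In each 0 were called, which at 0.413% of all genes called is near the background. Of 39 genes of the ATF4 and unfolded protein response 0 were called and 7 had a value above 0, with a median of -0.37 (-0.22 without DDX5 hairpin 3). Heat shock genes had the same median of -0.37 (-0.15 without DDX5 hairpin 3), with 0 of 17 called.

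Replication-dependent histones were the list with the most uniform sign. Of 58 measured genes 57 had a value above 0, against 54.6% of all genes, and the median was 0.26, and 0.25 without DDX5 hairpin 3 (0.27 after quantile normalization and 0.20 after median centring). By limma 0 of the 58 were called, with 17 at an unadjusted p under 0.05, against 2109 of all 18417 genes. Relative to the mean of the 6 arrays the list's median was 0.00, 0.22 and 0.24 with DDX5 hairpins 1 to 3, against -0.15, 0.04 and -0.35 with DDX17 hairpins 1 to 3. DDX5 hairpin 1 and DDX17 hairpin 2 overlapped. Histone genes are near-identical copies of each other, so their probesets are not separate measurements.

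**Figure D5:**
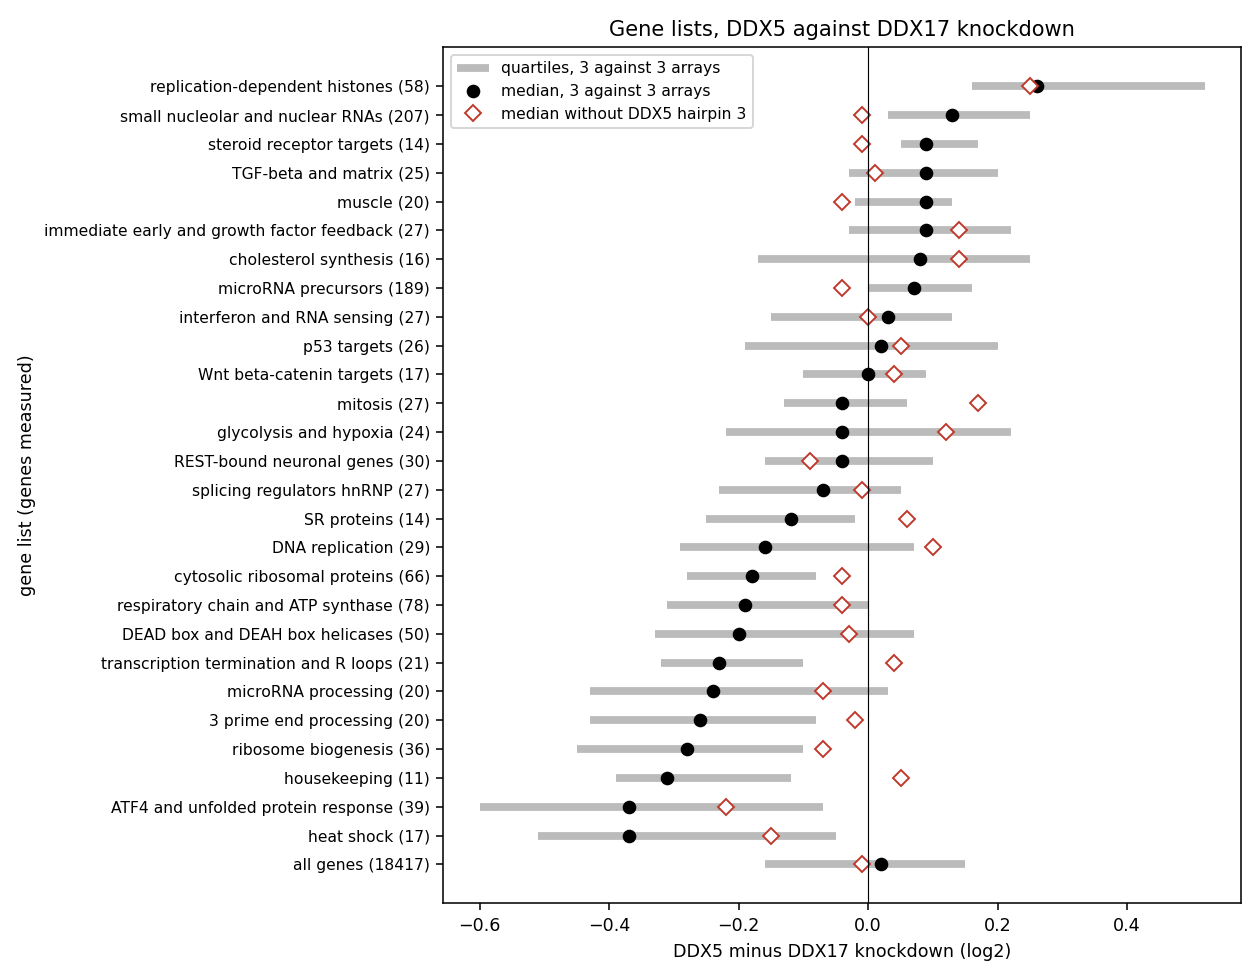
Difference in log2 intensity, DDX5 minus DDX17 knockdown, by gene list (number of genes measured in brackets). Black points are medians over genes with all 6 arrays, grey bars the quartiles, and open diamonds the medians without DDX5 hairpin 3. The histone median is 0.26 and 0.25, while the medians of 3 prime end processing, ribosome biogenesis and housekeeping genes come to within 0.07 of 0 without that array.

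Most differences between the knockdowns were small. The median absolute difference was 0.15, and the 95% interval of a gene reached a median of 0.34 to either side. In 17387 genes (94.4%) the whole interval lay within 1 unit of 0, so that a difference of more than 2-fold either way was outside it, and in 9191 (49.9%) it lay within 0.5. With the 6 arrays alone, whose own spread is then used, the intervals were wider, and 16095 genes lay within 1 and 4658 within 0.5. These counts describe how close the values were and are no test of equality.

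The next comparison asked for a change shared by both helicases. When the mean of DDX5 and DDX17 knockdown was set against the mean of CLP1 and HNRNPL knockdown, 0 of 18417 genes (0%) were called by limma, with 1359 at an unadjusted p under 0.05 and a smallest adjusted p of 0.0796. Without DDX5 hairpin 3 the count was also 0, without DDX5 hairpin 1 it was 10, and without DDX5 hairpin 2 it was 2. With array weights, where the DDX5 mean rested mostly on hairpin 2, it was 1656 (665 higher, 991 lower). In 48 of the 18417 genes the 6 arrays of the helicases did not overlap the 6 others, 19 higher and 29 lower. That count was not set against other splits of these arrays, so it does not show a shared change. The gene with the smallest p was ZNF76, which was low in DDX17 knockdown alone. H6PD, which makes NADPH in the endoplasmic reticulum, was among the next by p and is named after its values were seen. It read 5.77, 5.81 and 5.82 with DDX5 hairpins and 5.55, 5.36 and 5.62 with DDX17 hairpins, against 6.18, 6.32 and 6.29 with CLP1 hairpins and 6.01, 5.92 and 5.93 with HNRNPL hairpins. All 6 helicase arrays lay below the 6 others, but the adjusted p was 0.093. Among lists the small nucleolar and nuclear RNAs had the highest median in this contrast, 0.19, and glycolysis and hypoxia genes the lowest, -0.19, with 0 called in either.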

How the data were processed

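The authors scanned Affymetrix Human Gene ST1.0 arrays of randomly primed total RNA and, per the labels and methods, made probeset values by robust multi-array averaging (RMA) in aroma.affymetrix, which corrects background, quantile normalizes and summarises probes. The deposited intensity values ran from 4.25 to 18486 on the linear scale, and each of the 2 series was normalized apart. The authors located individual probes on hg19 for a separate probe-level analysis; the build behind the probeset values was not given in the sources used here. Log2 was taken with no pseudocount and no filter. Of 33252 probesets 19460 had 1 symbol, 1754 several and 12038 none; the brightest probeset was kept for 769 genes with several, giving 18417 genes, of which 18389 matched the RefSeq gene table (GRCh38.p14) by Entrez ID. That table gave chromosomes and gene order.

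limma 3.58.1 in R 4.3.3 fitted a mean per knocked-down gene over 24 arrays, moderating variances along their trend with intensity (degrees of freedom: 16 residual, 7.9 prior), two-sided, adjusted by Benjamini and Hochberg. The number of arrays limits the precision. Named were DDX5, DDX17, the 12 largest differences each way among called genes without overlap of arrays, up to 4 called members of each of 31 gene lists, and 5 partners; for the mean of both helicases, 8 each way were to be named, but 0 were called. The members and lists were chosen with earlier results of these data known. Each helicase against the mean of CLP1 and HNRNPL was added after seeing the data, as were the zinc finger groups. Hairpin numbers name different sequences in different genes and were not used to pair arrays. Alternatives were fewer or more arrays, quantile normalization, median centring, a pseudocount of 16, keeping the 12278 brightest genes, the mean of probesets, robust or untrended moderation, array weights, hairpin number as a block, and leaving out each array. The calling was tested on simulated data with the same spread in every knockdown. That test does not cover the wider spread of the DDX5 arrays. Figures used Python 3.11.15 with pandas 2.3.3, numpy 2.4.6 and matplotlib 3.10.9.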

Additional observations from a re-analysis of the deposited data

How the results depend on the processing

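With first-series arrays alone 19 genes were called between the helicases (1 higher, 18 lower) and DDX17 itself, at 1.05, was not; with the 6 arrays alone 4 were called (0 higher, 4 lower), neither DDX5, at -1.19, nor DDX17, at 1.05, passed, and 4658 genes had an interval within 0.5. First-series arrays with DDX5 hairpin 3 left out, a setting chosen after seeing the data, gave 61 (23 higher, 38 lower). With only the 12278 brightest genes 34 were called (24 lower), and 11304 and 4256 had an interval within 1 and within 0.5, fewer genes being tested. Without the intensity trend 24 were higher. Array weights ran from 0.102 for DDX5 hairpin 3 to 4.66 for DDX5 hairpin 2, so the DDX5 mean rested mostly on hairpin 2. They gave 2769 genes (1433 higher, 1336 lower). With them 22 of 58 histone genes were called higher, against 0 after quantile normalization, with median centring and with the replicate block. For the mean of both helicases against CLP1 and HNRNPL, array weights gave 1656. That mean gave 1 gene with all 28 arrays, 2 after quantile normalization, 2 with the pseudocount, 1 with the brightest genes and 2 with the replicate block. The replicate block gave 70 genes between the helicases against 76 without it; deviations of same-numbered DDX5 and DDX17 arrays correlated at 0.30, -0.17 and -0.17, so the numbers do not pair the arrays. The cause of these shifts was not tested. Leaving out 1 array gave 31 to 2275 calls (3 to 660 higher, 28 to 1615 lower), and 0 to 10 for the mean of both; the count without DDX5 hairpin 1 is the highest of each. DDX5 and DDX17 kept their direction in all settings, and of the other 29 named genes only DICER1, never called, reversed: it ran from -0.46 without DDX5 hairpin 1 to 0.05 without DDX5 hairpin 3, and was 0.05 in the first-series fit without that array. First-series arrays alone kept 12, quantile normalization 23 and median centring 27 of these 29 on their side of the threshold. Among the 29 are the 5 partners, which were not called to begin with. They are counted as kept here and had no call to lose. Without DDX5 hairpin 2, DDX17 hairpin 1, 2 or 3, 13, 4, 10 and 11 of the 29 lost their call. Of 589 list medians 586 moved by less than the SD of that median over the DDX5 arrays, which hairpin 3 widens. The lower genes had a median percentile of 35.5 in level among all genes.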

Other observations

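Several called genes that the naming rule did not reach encode signals, their receptors or nuclear regulators, and were picked after their values were seen. INHBA, the activin A subunit, read 5.85, 5.43 and 5.59 with DDX5 hairpins 1 to 3, against 6.56, 6.86 and 7.25 with DDX17 hairpins 1 to 3, and EPHA3, an ephrin receptor, read 4.99, 4.87 and 4.72, against 6.43, 5.98 and 5.61. Neither overlapped between the knockdowns, and INHBA was not called with first-series arrays alone (adjusted p = 0.0631). NTS, the precursor of neurotensin, differed by -1.01, THRB, a thyroid hormone receptor, by -0.78, and BCL6, a zinc finger repressor of B cells, by -0.71. The calls of these 3 were lost without DDX5 hairpin 3, at adjusted p-values by limma of 0.131, 0.112 and 0.126, and with first-series arrays alone, at 0.0678, 0.325 and 0.322. NALCN, a sodium leak channel, read 4.96, 4.83 and 4.90 with DDX5 hairpins, against 6.07, 5.62 and 5.71 with DDX17 hairpins, and 6.18, 6.06 and 5.52 with HNRNPL hairpins. KHDRBS3, an RNA-binding splicing regulator, read 7.21, 7.05 and 7.00, against 8.02, 7.83 and 7.83, with CLP1 arrays at 6.87 to 6.92 and HNRNPL arrays at 7.45 to 8.17. KHDRBS3 was not called without DDX5 hairpin 3 (adjusted p = 0.0546) or with first-series arrays alone (0.145), and NALCN not with first-series arrays alone (0.0631). Both genes thus had the split seen in CD99, with CLP1 at the DDX5 level and HNRNPL at or near the DDX17 level.

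Near KRTDAP on chromosome 19, SBSN, which encodes the epidermal protein suprabasin, was also lower, at -1.05 (adjusted p = 0.11 with first-series arrays alone). DMKN, the dermokine gene that lies between KRTDAP and SBSN in gene order, differed by -0.28 and was not called.

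Within the DDX5 knockdown, 2080 genes of hairpin 3 lay more than 1 unit from the mean of its other 2 hairpins, against 1069 for hairpin 1 and 21 for hairpin 2, and 15 to 65 for the DDX17 hairpins measured in the same way. The lowest in hairpin 3 was ZNF845, at 8.56, 7.74 and 5.85 with DDX5 hairpins 1 to 3, and the highest was SEPT5-GP1BB, at 7.73, 8.67 and 10.54. Small RNA genes were among its highest, SNORA28 at 7.81, 8.54 and 9.94 and MIR30C2 at 5.27, 5.60 and 7.17; HNRNPL hairpin 3 gave 10.02 and 6.54 for these 2 genes.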
